A study of Mus musculus with 31 samples.

Results

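The cytosolic ribosome is built from ribosomal RNA and a fixed set of proteins, each encoded by its own gene, and the 77 genes described here are those members of the set that the count tables hold under an Rpl or Rps symbol followed by a number, or as Rplp0, Rplp1, Rplp2 or Rpsa. Membership was set by symbol alone, among 31053 symbols measured in each of 3 RNA sequencing experiments on mouse T helper 17 (Th17) cells. The set itself was chosen with earlier results of these data known. There were 46 genes of the large subunit and 31 of the small subunit. Fau, whose product carries a ribosomal protein fused to a ubiquitin-like protein, did not match the symbols and was followed with the translation factors. The 77 genes lay on 19 chromosomes in GENCODE M21 on GRCm38, with 4 of them on the X chromosome.

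The large subunit holds the centre that joins amino acids and the tunnel through which the new chain leaves, and the small subunit reads the messenger RNA. Ribosomal protein messengers begin with a run of pyrimidines at the cap, the 5′ terminal oligopyrimidine (TOP) tract, through which mTOR signalling controls their translation. T cells that leave rest make many ribosomes, and Myc and mTOR are known drivers of that step.

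In the Cyp11a1 experiment, naive T cells carrying the 2D2 transgene, a T cell receptor that recognises myelin, came from mice that were wild type (WT, 4 libraries) or conditional knockout (cKO, 6 libraries) for Cyp11a1, which encodes the enzyme that opens steroid synthesis. The GR experiment had the same layout for GR, the glucocorticoid receptor encoded by Nr3c1, with 5 WT and 4 cKO libraries. In both, the cells were made into homeostatic Th17 cells (Th17Hom) in culture and given to recipients without Rag1, which make neither T nor B lymphocytes. The transferred cells caused experimental autoimmune encephalomyelitis and were sorted from brain and spinal cord at its peak. For the in vitro work, Th17 cells of the inflammatory type (Th17Inf), grown from WT spleen and lymph node cells, were kept for 2 days without addition, with dexamethasone (Dex, a synthetic glucocorticoid), with TGF-β1, or with TGF-β1 plus Dex, with 3 libraries in each group. The labels give a C57/B6 background, and the Cre line that drives either knockout is not given in the sources used here. Nothing in the labels says whether the libraries of a group came from separate recipients or cultures, so the spread between them may in part be technical.

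Libraries held 2769203 to 5623305 counts, and each of the 77 genes had counts in every library and passed the filter on low counts, with 112 counts as the lowest value of any of them. All 11 T cell markers were detected in each experiment, as were Il17a and Il17f, genes of the Th17 programme. Nr3c1 lay between 12.9 and 18.8 scaled CPM (counts as a share of the library size, which was adjusted by a TMM factor) in GR WT libraries and between 6.73 and 10.2 in GR cKO libraries, without overlap. Its means were 14.9 and 8.39, and 0.859% of all tested genes also lay wholly lower in cKO libraries. The log2 fold change was -0.83, and Nr3c1 was not called (adjusted p of 0.58, edgeR's quasi-likelihood test). Cyp11a1 could not be checked in this way: it had 0 counts in all 4 Cyp11a1 WT libraries and in 5 of 6 cKO libraries, with 4 counts in the other. Summed myeloid and microglia markers reached 5359 to 25037 scaled CPM across GR libraries, 566 to 1521 across Cyp11a1 libraries and 93.3 to 140.02 in the cultures. A group of 12 repeat-like predicted genes, Gm10800 and those that followed it across libraries, took 9.13% to 54.6% of a library's counts, most in GR cKO replicate 1 and GR WT replicate 5. In such libraries the share left for other genes is smaller.

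Ribosomal protein genes took 11.5% to 17.0% of a library's counts where Cyp11a1 was tested. They took 6.47% to 12.5% where GR was tested and 15.03% to 20.4% in the cultures. With the repeat-like genes left out of the total, these ranges were 16.8% to 19.6%, 13.0% to 15.6% and 20.8% to 22.6%. The tables were scaled separately, so the experiments were not tested against each other. The share did not separate WT from cKO libraries, nor any treated group from the controls. It was 13.5% ± 1.89 (SD, n = 4) in Cyp11a1 WT and 13.6% ± 1.71 (n = 6) in Cyp11a1 cKO libraries. It was 9.29% ± 2.02 (n = 5) in GR WT and 9.28% ± 2.40 (n = 4) in GR cKO libraries. In vitro it was 17.8% ± 0.394 in controls, 18.7% ± 1.52 with Dex, 16.9% ± 0.923 with TGF-β1 and 17.3% ± 2.20 with both (n = 3 each). Every Dex library lay above every TGF-β1 library, also in summed scaled CPM (181582 to 186454 against 164863 to 175770). Dex alone and TGF-β1 alone were not tested against each other. The small subunit genes made up between 43.0% and 46.4% of the ribosomal protein counts of any library, a narrow range beside that of the total.

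**Figure D1:**
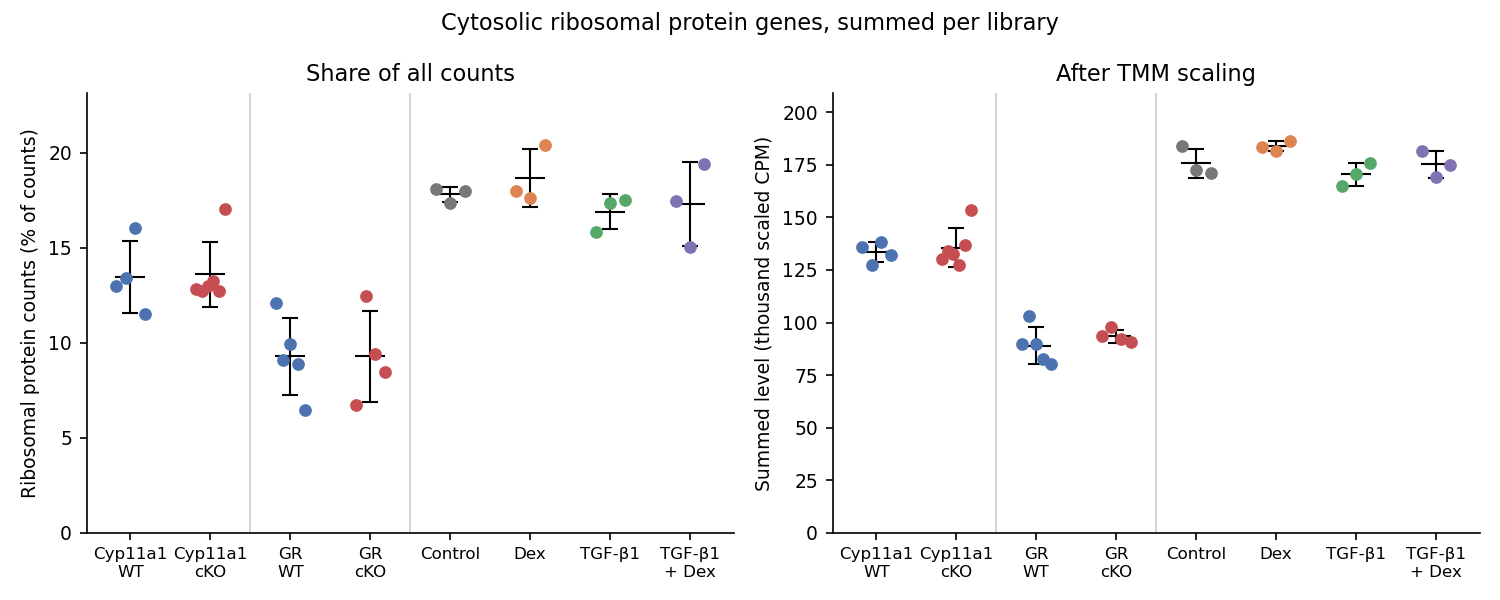
Summed ribosomal protein genes in each of the 31 libraries. The left panel shows their share of all counts in percent and the right panel their summed level (1 axis unit is 1000 scaled CPM). Each dot is a library, and the bar and whiskers are the mean and SD of a group. Grey lines separate the experiments, which were scaled separately. WT and cKO dots overlap in both knockout experiments, and Cyp11a1 cKO replicate 6 stands above its group at 17.0% of counts.

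The start of several of these genes is shown because the pyrimidine run at the first base is the feature they are known to share. Each line gives 40 bases before and 20 bases from the start annotated by RefSeq on GRCm38.p6, read 5′ to 3′ along the gene, and capitals mark a C followed by at least 4 pyrimidines within 10 bases of that start. The windows lie at chr2:39005112-39005171 (minus strand) for Rpl35, chr4:86857348-86857407 (minus) for Rps6, chr3:90213629-90213688 (minus) for Rps27, chr10:23787190-23787249 (minus) for Rps12, chr11:101442205-101442264 (plus) for Rpl27 and chr3:86142649-86142708 (minus) for Rps3a1.
Rpl35: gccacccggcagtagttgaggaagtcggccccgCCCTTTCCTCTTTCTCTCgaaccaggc
Rps6: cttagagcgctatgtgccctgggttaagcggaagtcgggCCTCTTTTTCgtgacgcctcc
Rps27: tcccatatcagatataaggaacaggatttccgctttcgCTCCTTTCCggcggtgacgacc
Rps12: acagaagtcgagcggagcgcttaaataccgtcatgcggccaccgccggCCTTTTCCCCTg
Rpl27: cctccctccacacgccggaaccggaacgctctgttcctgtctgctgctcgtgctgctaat
Rps3a1: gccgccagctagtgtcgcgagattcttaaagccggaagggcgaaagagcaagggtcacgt
Rpl35, Rps6, Rps27 and Rps12 have such a run, of 18, 10, 9 and 11 bases, and Rpl27 and Rps3a1 have none within 10 bases of the annotated start. Farther upstream, the Rpl27 window also holds pyrimidine runs. The annotated start may differ from the base that transcription uses.

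RefSeq windows of 300 bases (250 before the start) were found for 57 of the 77 genes, giving 67 windows. A pyrimidine run as defined above was present in 53.7% of the 67 windows and in 30.7% of all 32851 promoter windows. The letters CCGGAAG, the core of an ETS factor motif, were present on either strand in 37.3% of the ribosomal protein windows and 8.86% of all windows. The letters CTCGCGA, part of a CG-rich palindrome, were present in 22.4% and 1.93%. The core of the YY1 motif, AAGATGG, was present in 16.4% and 6.34%. The E-box that Myc and Max bind, CACGTG, was present in 11.9% and 7.15%. Each motif was counted separately, whether or not it overlapped another. The run was set beside level and response as a description. In vitro, the median level was 2610.3 scaled CPM per kb of transcript for the 34 genes with a run and 2504 for the 23 without. In the GR experiment these medians were 1203 and 1449 scaled CPM per kb. With Dex against control, the median log2 fold change was 0.04 in both.

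The same few genes stood at the top and the bottom of the levels per transcript length in all 3 experiments. Length was taken as the median of a gene's protein-coding transcripts in GENCODE M21. Rps27, a zinc-binding protein of the small subunit, was highest, at 12495 scaled CPM per kb in Cyp11a1 libraries, 8980 in GR libraries and 11546 in vitro. Rplp1, an acidic protein of the stalk that recruits translation factors, and Rpl41, the smallest ribosomal protein, were among the highest 6 in each experiment. Rps28 and Rps29, small proteins of the small subunit, were in that group in the nervous system experiments, and Rps28 and Rps18 in vitro.

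Rpl27 was lowest in each experiment, at 132, 72.5 and 123 scaled CPM per kb in the same order. Rpl35, whose protein sits beside the exit of the peptide tunnel, stood at 181, 133 and 253 scaled CPM per kb. Over the 77 genes the medians were 2121, 1303 and 2756 scaled CPM per kb. Rps20, Rpl22 and Rps15a also ranked low per kb. Their median annotated transcripts were 3706, 2048 and 5130 bases long, against a median of 774 bases over the 77 genes, and Rps15a had a level of 1691 to 2840 scaled CPM without the division by length. Many ribosomal protein genes have near-identical pseudogenes. The tables list 9 of 294 annotated ribosomal protein pseudogene symbols of the -ps type, which together held 3.62% to 4.28% as many counts as the 77 genes, so reads of parent and copy may be divided between them and the level of a single gene is uncertain.

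The spread between libraries of a group was small for most members. The median SD of log2 CPM over the 77 genes was 0.11 in Cyp11a1 libraries, 0.14 in GR libraries and 0.07 in vitro. Over all tested genes it was 0.26, 0.30 and 0.23. Genes outside the set within the same range of levels had median SDs of 0.14, 0.23 and 0.11. Those within the middle range of the members' levels, 26, 34 and 23 genes, had median SDs of 0.10, 0.23 and 0.08, so that in the Cyp11a1 experiment members were no less variable than these. Rps2, at the entry of the messenger channel, varied most in the Cyp11a1 and in vitro experiments, with SDs of 0.42 and 0.35. In the GR experiment Rps12, Rpl28 and Rps2 had SDs of 0.38, 0.38 and 0.37. Rps2 ranged from 633 to 1784 scaled CPM in Cyp11a1 libraries, from 723 to 1524 in GR libraries and from 1405 to 2760 in vitro. The groups overlapped in every comparison. At the other end, Rpl3 varied by an SD of 0.03 in vitro and Rpl11 by 0.05 in the Cyp11a1 experiment. Members varied together between libraries of a group. The median correlation over pairs of members was 0.70 in Cyp11a1 libraries, 0.68 in GR libraries and 0.55 in vitro. Counts of members with the same sign, or without overlap of the groups, are therefore not counts of independent genes.

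**Figure D2:**
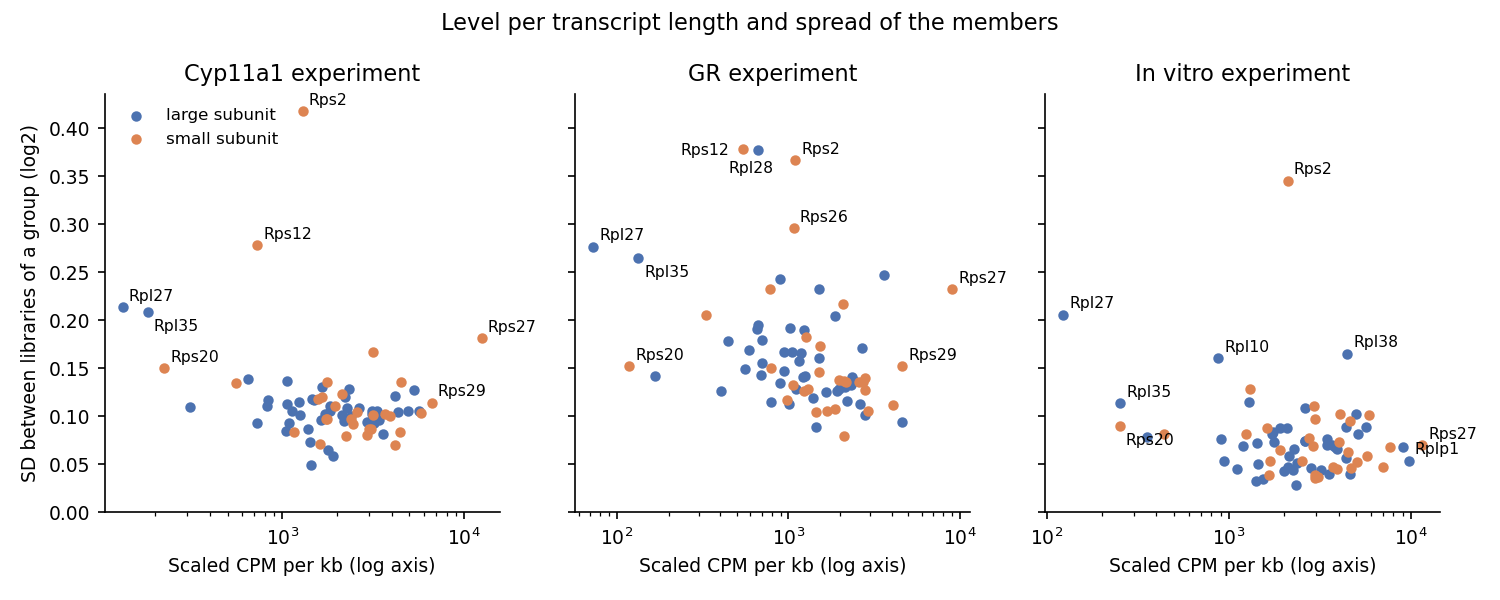
Level and spread of 75 of the 77 ribosomal protein genes in each experiment. The horizontal log axis gives the mean scaled CPM per kb of transcript and the vertical axis the SD of log2 CPM between libraries of a group. Dots are genes, blue for the large and orange for the small subunit. Rps2 has the highest spread in the Cyp11a1 and in vitro panels (0.42 and 0.35), and Rpl27 is the lowest dot on the level axis in all panels.

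The first comparison asked whether loss of Cyp11a1 in T cells changed these genes in Th17 cells of the inflamed nervous system. None of the 77 genes passed an adjusted p of 0.05, while 18 of 10125 tested genes did (0.178%). At an unadjusted p up to 0.05 edgeR's quasi-likelihood test gave 2 members, 2.6% of the set against 7.98% of all tested genes, and DESeq2 and limma voom called 0. The median log2 fold change of the set was 0.03, with 61 of 77 values above 0 against 50.7% of all tested genes. This median is below the SD of 0.10 between library medians of a group and was -0.01 without cKO replicate 6. No member separated the groups without overlap, while 0.998% of tested genes lay wholly higher and 0.978% wholly lower in cKO libraries. Scaled CPM sums were 133434 ± 4807 (SD, n = 4) in WT and 135648 ± 9304 (n = 6) in cKO libraries.

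Rpl28 and Rpl10, which joins the large subunit late in its assembly, were the genes of smallest p. Rpl28 stood at 899, 935, 986 and 807 scaled CPM in the WT libraries and at 1048, 927, 1023, 993, 1138 and 1229.5 in the cKO libraries. All cKO values but 1 were above the highest WT value, so the groups overlapped. The log2 fold change was 0.22 ± 0.08 (SE), with an adjusted p of 0.491 in edgeR's quasi-likelihood test. For Rpl10 the cKO libraries averaged 712 ± 63.9 scaled CPM and the WT libraries 629 ± 24.3, with overlap and an adjusted p of 0.565 (edgeR). On the lower side were Rps2 at -0.23 ± 0.22, Rps27 at -0.13 ± 0.10 and Rpl22 at -0.10 ± 0.07 (log2 fold change ± SE), all with adjusted p of 0.803 or more in edgeR. Rps27 in WT spread from 3733 to 5468 scaled CPM and enclosed the cKO range, 3730.1 to 4607, almost wholly. Myeloid and microglia markers summed to 694 ± 114 scaled CPM in WT and 1113 ± 318 in cKO libraries, and 3 of their 19 tested genes were called higher in cKO. Their part in these values was not tested.

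**Figure D3:**
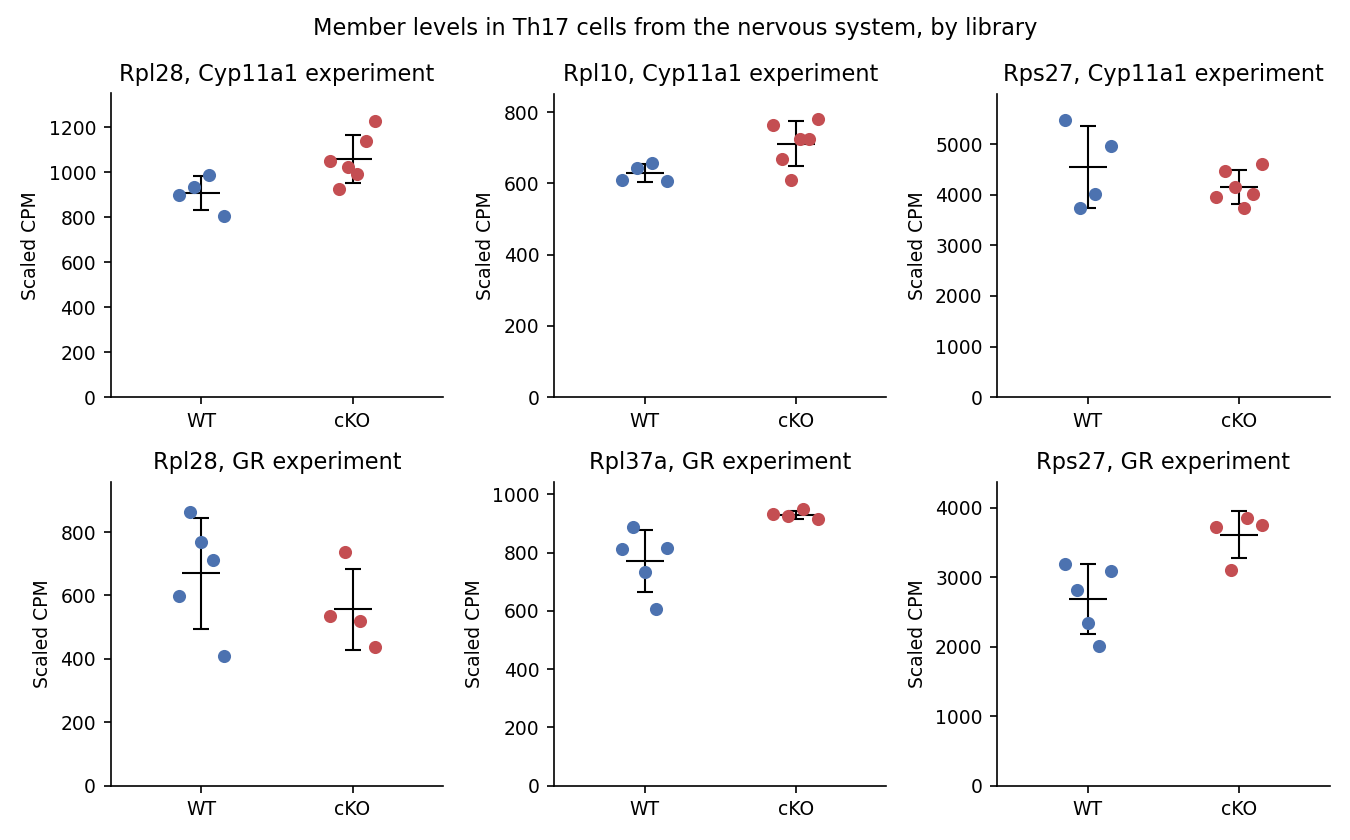
Scaled CPM in WT and cKO libraries of Rpl28, Rpl10 and Rps27 in the Cyp11a1 experiment (upper row) and of Rpl28, Rpl37a and Rps27 in the GR experiment (lower row). Each dot is a library, and the bar and whiskers are mean and SD. Vertical axes start at 0. Only Rpl37a in the GR experiment separates the groups, at 605 to 888 in WT and 914 to 948 in cKO libraries.

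The ribosomal protein paralogs outside the set included the single called ribosomal protein-like gene of this comparison. Rpl39l, a copy of Rpl39 known in mice for its use in male germ cells, had 8, 0, 3 and 6 counts in the Cyp11a1 WT libraries and 88, 47, 59, 62, 102 and 34 counts in the cKO libraries. Every cKO library was above every WT library. The means were 0.947 ± 0.822 scaled CPM in WT and 14.1 ± 5.89 in cKO libraries, and the log2 fold change was 3.95 ± 0.53 (SE; adjusted p of 0.00697, edgeR's quasi-likelihood test). The call held without any single library, limma voom and the fit with a replicate block did not make it, and a mean count filter of 50 removed the gene from the test. In the GR experiment Rpl39l had 0 to 13 counts per library and in vitro 0 to 9. Rpl39 itself, which lines the exit tunnel, differed by a log2 fold change of 0.08 ± 0.07 with an adjusted p of 0.840 (edgeR), and the other 5 tested paralogs lay between -0.15 and 0.16. No gene was called among 30 ribosome biogenesis genes (21 positive, median 0.06), 25 translation factors with TOP messengers (20 positive, median 0.05) and 78 mitochondrial ribosomal protein genes (53 positive, median 0.06).

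The second comparison asked the same of the glucocorticoid receptor. None of the 77 genes and none of 10597 tested genes (0.0%) passed in edgeR's quasi-likelihood test. At an unadjusted p up to 0.05 there were 4 members, 5.19% of the set against 8.21% of all tested genes, and DESeq2 and limma voom called 0 members. The median log2 fold change was 0.05, with 50 of 77 values above 0 against 49.8% of all tested genes. It was -0.01 with library size alone as the scale, and the SD between library medians was 0.15. Sums were 89041 ± 8847 scaled CPM in WT (n = 5) and 93529 ± 3098 in cKO libraries (n = 4).

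Rps27, the most abundant member per kb, had the largest difference. It stood at 3192, 2819, 2337, 2013 and 3087 scaled CPM in the WT libraries and at 3722, 3108, 3853 and 3752 in the cKO libraries. Of the cKO values, 3 were above all WT values and replicate 2 was not. The log2 fold change was 0.42 ± 0.14 (SE), with an adjusted p of 0.58 (edgeR). Rpl37a, a zinc-binding protein of the large subunit, was between 605 and 888 scaled CPM in WT and between 914 and 948 in cKO libraries. It did not overlap, at a log2 fold change of 0.27 ± 0.11 and an adjusted p of 0.58 (edgeR). Rpl19, Rps28 and Rps29, named here because of their values, also lay higher in all cKO than in all WT libraries, so that 5.19% of the members and 1.39% of all tested genes separated in this direction. None lay wholly lower in cKO libraries (0.859% of tested genes).

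WT replicates 3 and 4 were the lowest libraries for Rps27 and Rpl37a, and they had the lowest sums of myeloid markers of the experiment, 5359 and 6916 scaled CPM. The myeloid sums were 13571 ± 8409 scaled CPM in WT and 20131 ± 5863 in cKO libraries, and all 21 of these markers had positive log2 fold changes with 0 called. Without the 4 libraries highest in myeloid markers, a comparison added after the data were seen, the log2 fold change of Rps27 was 0.53. That of Rpl37a was 0.34, and the adjusted p values were 0.306 and 0.46 (edgeR's quasi-likelihood test). The WT libraries left had myeloid sums of 5359 to 10688 scaled CPM and the cKO libraries 12352 and 18883. The groups left thus still differed in myeloid markers, and this comparison cannot set that difference aside. In a sorted bulk sample a change in the cells present and a change in RNA per cell cannot be told apart. On the lower side were Rps2 at -0.33 ± 0.21 and Rpl15 at -0.21 ± 0.15 (log2 fold change ± SE), with adjusted p of 0.614 or more in edgeR.

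Other genes of ribosome production were mostly on the lower side in GR cKO libraries, beside 27 negative values among the 77 members. Of 78 mitochondrial ribosomal protein genes, 70 had negative log2 fold changes and 8 positive, where 49.8% of all tested genes were positive. Their median was -0.22 and 0 were called, as among all tested genes. At an unadjusted p up to 0.05 (edgeR) there were 13 of the 78, against 8.21% of all tested genes. Of 30 ribosome biogenesis genes, 25 were negative, with a median of -0.28, 0 called and 1 at an unadjusted p up to 0.05 (edgeR). Summed mitochondrial ribosomal protein genes were 2879 ± 472 scaled CPM in WT and 2485 ± 196 in cKO libraries. WT replicates 3 and 4, low in myeloid markers, had the highest sums of all 9 libraries, at 3478 and 3166. Among 25 translation factors with TOP messengers 10 were positive, the median was -0.05, and 4 had an unadjusted p up to 0.05 (edgeR).

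The in vitro experiment asked how a glucocorticoid and TGF-β1, alone and together, change inflammatory Th17 cells. The 3 comparisons with control share its 3 libraries, and comparisons with a single agent share libraries with these. Csf1r, Itgam, C1qa and Adgre1, defining myeloid markers, had 0 counts in these cultures. Genes that passed in these comparisons included Rpl27, Rpl35, Rps3a1 and Rpl3, and the medians of the set lay between -0.06 and 0.04, within the SD of 0.07 between library medians. Control replicate 1 moved these medians: without it, the median was 0.10 for Dex, -0.0019 for TGF-β1 and 0.03 for both agents against control. Because members varied together between libraries, a shift in a single library can move many of them, and the shares below do not count independent genes.

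**Figure D4:**
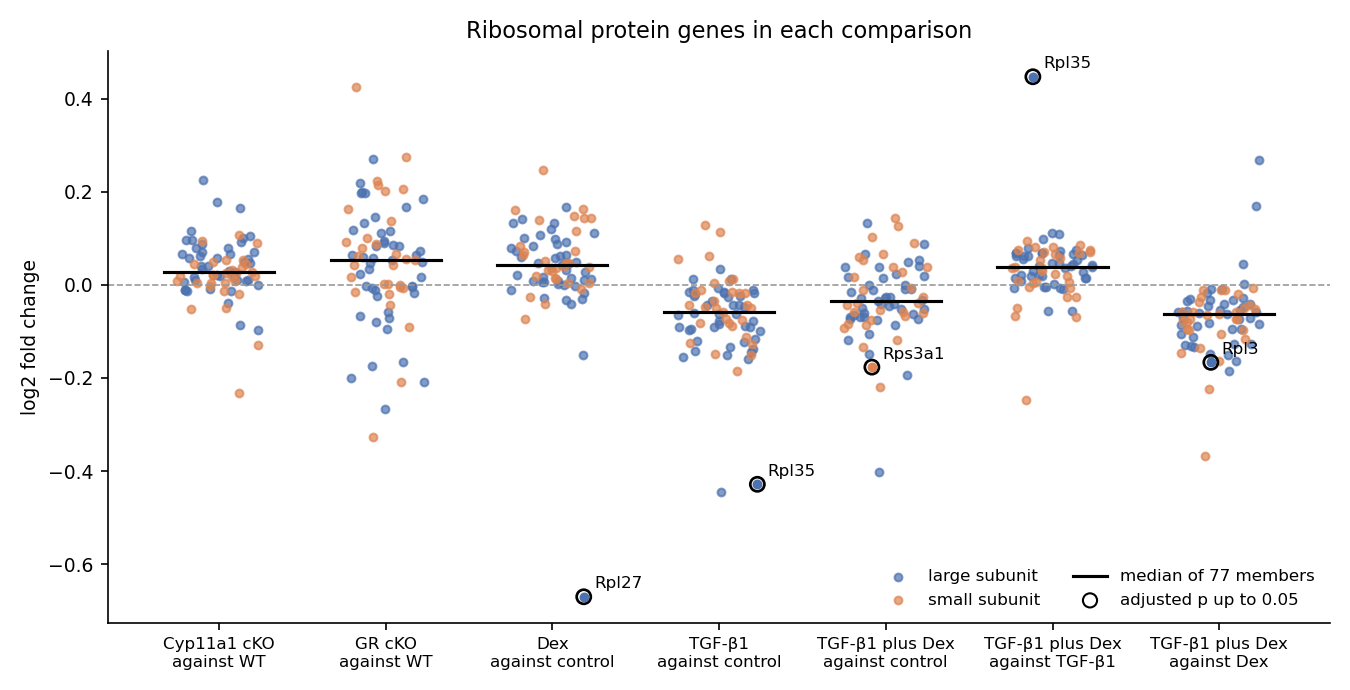
Log2 fold changes of 75 of the 77 ribosomal protein genes in each comparison. Dots are genes, blue for the large and orange for the small subunit, black bars are medians over all 77 and circles mark an adjusted p up to 0.05 in edgeR's quasi-likelihood test. No gene is circled in the knockout comparisons, and the lowest circled value is Rpl27 with Dex at -0.67.

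With Dex, Rpl27 fell. In all, 2 of the 77 genes were called (2.6%), 1 in each direction, against 188 of 10332 tested genes (1.82%, of which 0.919% were called higher and 0.9% lower). Rpl27, a large subunit protein and the least abundant member, was at 108, 121 and 89.2 scaled CPM in the controls and at 72.8, 59.4 and 67.7 with Dex. The groups did not overlap, and the log2 fold change was -0.67 ± 0.15 (SE; adjusted p of 0.0395, edgeR's quasi-likelihood test). The call was lost without control replicate 1 or 2, any Dex library, TGF-β1 replicate 3 or TGF-β1 plus Dex replicate 2 (adjusted p of 0.0521 to 0.154, edgeR).

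Most other members had positive values without passing. Of the 77 genes 62 had positive values, against 50.5% of all tested genes, and the median was 0.04. An unadjusted p up to 0.05 was found for 15 members (19.5% against 13.2%). In 17 of the 77 genes (22.1%) all Dex libraries lay above all controls, against 9.88% of tested genes, and only Rpl27 lay below (1.3% against 9.46%). The 17 included Rplp1 at 0.17 ± 0.05, Rps19 at 0.16 ± 0.04, Rpsa at 0.15 ± 0.05 and Rplp0, the base of the stalk, at 0.14 ± 0.04 (log2 fold change ± SE), with adjusted p of 0.0858 or more in edgeR. Rps19 is the gene most often mutated in Diamond-Blackfan anaemia of humans, and Rpsa is also known as the laminin receptor. Sums were 183832 ± 2457 scaled CPM with Dex and 175728 ± 7013 in controls. Dex replicate values of 181582 to 186454 overlapped control replicate 1 at 183776.

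With TGF-β1, Rpl35 fell, the single member called (1.3%), against 341 of all tested genes (3.3%, of which 1.94% were called higher and 1.36% lower). It was at 278, 245 and 264 scaled CPM in the controls and at 169.6, 207 and 207 with TGF-β1. The groups did not overlap, and the log2 fold change was -0.43 ± 0.09 (SE; adjusted p of 0.0144, edgeR's quasi-likelihood test). The call was lost without control replicate 1, control replicate 3 or TGF-β1 replicate 1 (adjusted p of 0.0548 to 0.0649, edgeR). Rpl27 also lay below control in all libraries, at a log2 fold change of -0.45, and was not called. The margin was narrow, at 89.15 scaled CPM in TGF-β1 replicate 1 and 89.18 in control replicate 3.

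Most members had negative values with TGF-β1. Of the 77 genes 11 had positive values, against 50% of all tested genes, and the median was -0.06. An unadjusted p up to 0.05 was found for 17 members (22.1% against 15%). In 19 genes (24.7%) all TGF-β1 libraries lay below all controls, against 10.4% of tested genes, and in 3 genes (3.9% against 10.5%) they lay above. The latter included Rpsa and Rplp0, at log2 fold changes of 0.11 and 0.03. Among the 19 was Rps6, the small subunit protein that S6 kinase phosphorylates. It was at 2802, 2720.2 and 2679.6 scaled CPM in controls and at 2372, 2506 and 2519 with TGF-β1 (log2 fold change -0.15 ± 0.04, adjusted p of 0.0686, edgeR). Rps3a1, which lies near the messenger exit of the small subunit, was at -0.18 ± 0.05 (adjusted p of 0.0636, edgeR).

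With TGF-β1 plus Dex, Rps3a1 fell. In all, 2 genes of 77 were called (2.6%), 1 in each direction, against 646 of all tested genes (6.25%, of which 3.12% were called higher and 3.14% lower). Rps3a1 was at 1857, 1752 and 1682 scaled CPM in controls and at 1594, 1520.0 and 1566 with both agents. The groups did not overlap, and the log2 fold change was -0.18 ± 0.05 (SE; adjusted p of 0.0496, edgeR's quasi-likelihood test). That call was lost when any 1 of the 12 libraries was left out (adjusted p of 0.0548 to 0.22). The set as a whole had 25 positive values (50.2% of tested genes were positive) and a median of -0.03. In 7 members (9.09% against 11.5% of tested genes) all libraries with both agents lay above all controls, and in 9 (11.7% against 12.0%) they lay below. At an unadjusted p up to 0.05 there were 14 members (18.2% against 18.8%).

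Comparing both agents with TGF-β1 alone, Rpl35 rose. It was at 255, 271 and 269.9 scaled CPM with both agents, above all TGF-β1 libraries, and the control mean was 262. The log2 fold change against TGF-β1 alone was 0.45 ± 0.09 (SE; adjusted p of 0.0397, edgeR's quasi-likelihood test). It was the single member called (1.3%), against 55 of all tested genes (0.532%, of which 0.31% were called higher and 0.223% lower). The call was lost without control replicate 3, Dex replicate 3 or any 1 of the 6 libraries compared (adjusted p of 0.0592 to 0.13, edgeR). Of the 77 genes 61 had positive values, against 49.3% of all tested genes, and the median was 0.04. In 4 members (5.19% against 7.14% of tested genes) all libraries with both agents lay above those with TGF-β1 alone, and Rps12 lay below (1.3% against 8.03%). At an unadjusted p up to 0.05 there were 4 members (5.19% against 9.84%). With Dex alone Rpl35 was at 236 ± 19.6 scaled CPM, which overlapped the controls.

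Comparing both agents with Dex alone, Rpl3 fell, whose protein reaches to the centre of the large subunit where peptide bonds form. Rpl3 was at 3437, 3412 and 3383 scaled CPM with Dex and at 2985, 2984 and 3148 with both agents. The groups did not overlap, and the log2 fold change was -0.17 ± 0.04 (SE; adjusted p of 0.0323, edgeR's quasi-likelihood test). Rpl3 was the single member called (1.3%), against 271 of all tested genes (2.62%, of which 1.46% were called higher and 1.16% lower). The call was lost without 10 of the 12 libraries in turn (adjusted p of 0.0507 to 0.133) and held without control replicate 1 or TGF-β1 plus Dex replicate 3. In this comparison only 4 of 77 genes were positive, against 49.3% of tested genes, and 22 (28.6% against 8.94%) lay below Dex in all libraries. Rpl27 alone lay above (1.3% against 9.41%), narrowly, at 72.97 scaled CPM in TGF-β1 plus Dex replicate 3 and 72.83 in Dex replicate 1. None of the 31 small subunit genes was positive. There were 13 members at an unadjusted p up to 0.05 (16.9% against 13.0%). Rps12, a small subunit protein, had the largest negative value, at 744, 638 and 786 scaled CPM with Dex and 517, 599.8 and 564 with both agents (log2 fold change -0.37 ± 0.09, adjusted p of 0.0564, edgeR).

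**Figure D5:**
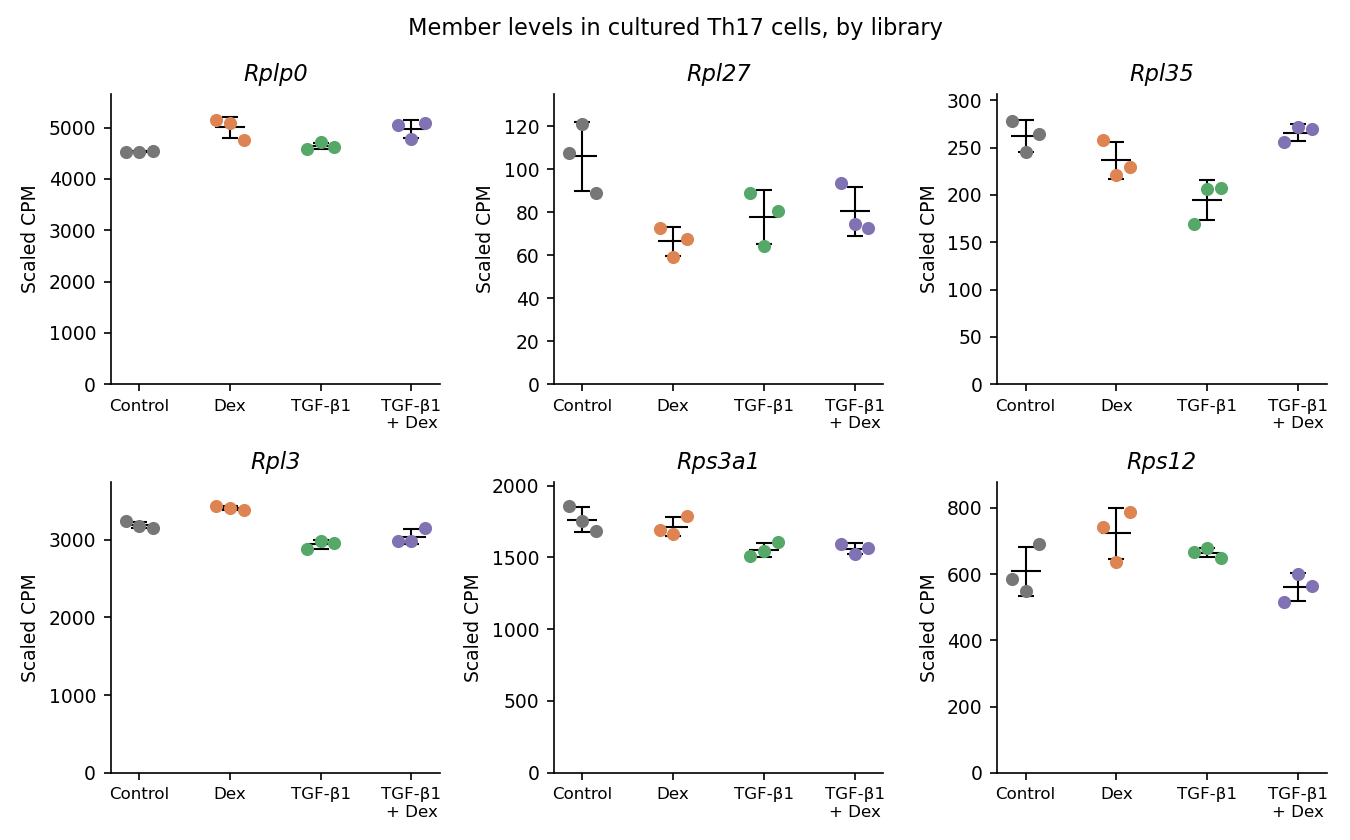
Scaled CPM of 6 ribosomal protein genes in the 12 cultured libraries. Each dot is a library, and the bar and whiskers are mean and SD of 3 libraries. Vertical axes start at 0. Rplp0 is lowest in controls (4522 to 4550.3), Rpl27 is highest in controls on average (106), and Rpl35 is lowest with TGF-β1 (169.6 to 207).

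The interaction term tests whether the effect of Dex differs with and without TGF-β1. None of the 77 genes and none of all tested genes (0.0%) passed in edgeR's quasi-likelihood test, with 4 members at an unadjusted p up to 0.05 (5.19% against 5.34% of tested genes). DESeq2 called 1 member and limma voom 0. The largest terms on the log2 scale were 0.71 ± 0.21 for Rpl27 (adjusted p of 0.742, edgeR), 0.60 ± 0.12 for Rpl35 (0.42) and -0.50 ± 0.13 for Rps12 (0.739). In edgeR, the single effects that passed for Rpl27 and Rpl35 were thus not shown to depend on the other agent.

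Rplp0, Rpsa, Rps6, Rps27, Rpl39 and Rpl41 were followed in every comparison. Their log2 fold changes in vitro lay between -0.15 and 0.15, and in the Cyp11a1 experiment between -0.13 and 0.10. In the GR experiment they lay between -0.17 (Rpl41) and 0.42 (Rps27). None was called in edgeR. Rplp0, which is widely used as a reference gene, was at 4522, 4529 and 4550.3 scaled CPM in controls and at 5154, 5090.2 and 4767 with Dex. These groups did not overlap.

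Other genes of ribosome production and translation were also followed in vitro. With both agents against control, 4 of 78 mitochondrial ribosomal protein genes fell, Mrpl1 by 0.96, Mrpl35 by 0.66, Mrps28 by 0.61 and Mrps27 by 0.48 on the log2 scale (adjusted p of 0.0125 to 0.0345, edgeR's quasi-likelihood test), and 65 of the 78 were negative. The 4 are 5.13% of their list, where 6.25% of all tested genes were called and 3.14% were called lower. Rrp12, a factor for export of pre-ribosomes, rose by 0.59 ± 0.14, the single called gene of 30 for ribosome biogenesis (3.33%, against 3.12% of all tested genes called higher). Among 19 tested growth signalling genes Larp4, which binds poly(A) tails, rose by 0.77 ± 0.19 and Eif4ebp1, the repressor of cap-dependent translation that mTOR inactivates, by 0.28 ± 0.07 (10.5% of the list). Fau rose by 0.18 ± 0.05, 1 of 25 translation factors with TOP messengers (4% against 3.12%). With TGF-β1 alone, Mrpl17 fell by 0.35 ± 0.09 (adjusted p of 0.0455, edgeR), 1.28% of its list against 3.3% of all tested genes, and with Dex alone no gene of these 4 lists was called in edgeR. At an unadjusted p up to 0.05, Dex alone gave 12 mitochondrial ribosomal protein genes (15.4%), 2 biogenesis genes (6.67%), 3 translation factors (12%) and 5 growth signalling genes (26.3%), against 13.2% of all tested genes. The paralogs outside the set had 5 tested genes and 0 called in every in vitro comparison.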

How the data were processed

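RNA of sorted cells went through SMART-Seq2, modified, and Nextera XT libraries, which keep no strand. The deposited values are whole-number counts per gene symbol, not normalised, in 1 table per experiment. Per the submitters' processing notes, RSEM 1.3.3 and build mm10 were used; the annotation is not given in the sources used here. All 31 columns matched a library, and 0 did not.

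Counts were tested in R 4.3.3 with edgeR 4.0.16 (filterByExpr, TMM scaling, robust quasi-likelihood F test, Benjamini-Hochberg threshold 0.05 over all tested genes). Each experiment was fitted alone, and the 12 in vitro libraries shared 1 fit. The test was also run on simulated counts, drawn for each gene independently from the means and spread of the fit. These lack the correlation between members, and the outcome is not reported here. Chi-square per degree of freedom between replicates was 2.79 to 142, more than counting noise alone gives. Libraries of a group thus differed by more than a second sequencing would give through counting noise alone. Separate amplifications of the same cells cannot be told from separate samples in this way. Alternatives used DESeq2 1.42.0, limma 3.58.1 voom, other scalings, filters, a replicate term and each library left out.

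The members and lists were chosen with earlier results of these data known. Named genes were those past the threshold, otherwise the 3 of smallest p per direction, with 6 fixed members, the extremes of level and spread, and up to 5 genes of the other lists. Gene positions and lengths came from GENCODE M21, promoters from RefSeq on GRCm38.p6. Results for some genes that these rules name are not reported here.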

Additional observations from a re-analysis of the deposited data

Results flagged for a closer look

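Of 52 groups of library values examined for a value far from the others, 2 were singled out, and chance gives about 1 in 20. Both concern Cyp11a1 cKO replicate 6. Its ribosomal protein genes held 17.0459% of counts, while the other 5 cKO libraries started at 12.7% and the group median was 12.9%. Their summed level after scaling was 153442 CPM, against a group median of 133252. Without this library the median log2 fold change of the 77 genes between cKO and WT was -0.01 in place of 0.03. Repeat-like genes held 13.1% of its counts, the lowest share in that experiment, and its myeloid marker sum was 1473 scaled CPM. Their part in the result was not tested.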

How the results depend on the processing

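No member was called in either knockout comparison under any alternative run. In vitro, the called members changed with the setting, and the cause was not tested. For Dex against control (2 called), library size alone as the scale gave 0, no low count filter 1, a mean count of at least 50 gave 5, DESeq2 7, limma voom 5 and the compared groups alone 0. For TGF-β1 against control (1 called), library size alone gave 0, the mean count filter 2, DESeq2 4 and limma voom 3. For TGF-β1 plus Dex against control (2 called), library size alone gave 0, scaling without repeat-like genes 1, scaling without the members 1, no filter 0, the mean count filter 4, DESeq2 6, the replicate block 1 and the compared groups alone 1. Against TGF-β1 alone (1 called), library size alone, the replicate block and the compared groups alone each gave 0. Against Dex alone (1 called), upper quartile scaling gave 2, library size alone 0, the mean count filter 2, DESeq2 2 and the compared groups alone 0. For the interaction (0 called) DESeq2 gave 1. Leaving out 1 library gave 0 to 3 called members for Dex, 0 to 1 for TGF-β1, 0 to 3 for both agents against control, and 0 to 1 for both agents against either agent alone. Deviations of same-numbered libraries correlated between -0.24 and 0.12, and in vitro between -0.02 and 0.07. Differently numbered libraries were not correlated for reference, so whether replicate numbers mark a shared batch cannot be told from these values. The replicate block changed no other count of called members, and it ended the call of Rpl39l. Rps27 in the Cyp11a1 comparison changed sign without WT replicates 1 and 4, from -0.13 to 0.10, and Rps27a with Dex lay between -0.14 and 0.000382 over single libraries left out. Medians of the set moved by less than the SD between library medians under every alternative. Their size passed that SD (0.07 in vitro) in 4 of 23 alternatives for TGF-β1 against control (-0.09 with library size alone), in 4 of 23 for both agents against Dex (-0.10 with library size alone) and in 1 of 23 for Dex against control (0.10 without control replicate 1). They changed sign in the Cyp11a1 comparison under the replicate block (-0.02), without cKO replicate 6 and without cKO replicates 2 and 6, the libraries highest in myeloid markers (-0.01 in both), in the GR comparison with library size alone (-0.01), for both agents against control without control replicate 1 (0.03) and for the interaction in 5 of 22 alternatives. At a depth of 2769203 to 5623305 counts, a member had as few as 112 counts in a library.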
